A study of Rattus norvegicus with 3 samples.

Results

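The 30 genes described here are the enzymes that build cholesterol, the proteins that sense it and the proteins that move it within or out of cells. They were taken by symbol from the 29772 genes of the deposited matrices: 8 enzymes of the mevalonate part of synthesis, 12 enzymes of the sterol part, 5 sensing genes and 5 transport genes. All 30 were found. Their unique molecular identifiers (UMIs, each standing for 1 captured RNA molecule) were counted over cell classes in 3 droplet single-cell RNA libraries of Rattus norvegicus, made from embryonic cerebral cortex of wildtype animals. The libraries are labelled with embryonic days 14, 16 and 18, and each label has 1 library. The tissue was dissociated with papain and profiled with the 10x Genomics 3′ kit, per the labels. The labels' protocol text also describes a sort for live human cells that cannot have been applied to rat tissue as written, and the steps behind these libraries are otherwise not known. Strain, sex and the number of embryos behind each library are not given in the sources used here.

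A barcode was kept where 1000 or more genes were detected and no more than 10% of its UMIs were mitochondrial, and the highest doublet scores were removed. This left 4286 cells labelled E14, 4977 labelled E16 and 5431 labelled E18, with medians of 10477 to 12264 UMIs per cell. Of their barcodes, 15, 15 and 14 also occurred in another library. The kept cells held 111358, 130161 and 128748 UMIs of the 30 genes in label order. Levels are given as CPM, the usual scaling of a UMI count by the total UMIs of the summed cells of a class, with exact Poisson 95% intervals that cover counting error only.

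The library labels did not follow the order of genes known to change with cortical age, and this touches every comparison between labels below. In radial glia, Igf2bp2, an RNA-binding protein of early progenitors, stood at 31.9 CPM in the library labelled E14, 144.8 in that labelled E16 and 86.6 in that labelled E18. Bcan, a matrix proteoglycan of the maturing brain, stood at 102, 1.04 and 23.2 CPM. Of 8 late genes with a mean of at least 5 CPM over the labels, 8 were highest under the label E14 and 7 of them lowest under E16. Luzp2 (18.5, 0.602 and 0.212 CPM) and Sparcl1 (20.7, 0.657 and 0.804 CPM) met this mean through the label E14 alone. Their highest label was therefore set by this rule. Of 5 early genes with such a mean, 5 were highest under E16. Lin28b, at 0, 6.27 and 1.10 CPM, did not reach it. The libraries are therefore named by their labels throughout, with no reading as a time course.

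Cholesterol is made from acetyl-CoA, first through mevalonate to farnesyl pyrophosphate, then through squalene and lanosterol to the sterol itself. When membrane sterol is low, SCAP carries SREBP proteins out of the endoplasmic reticulum and these raise the transcription of the synthesis enzymes, while INSIG proteins hold them back. The brain makes its own cholesterol, because lipoproteins do not cross the blood-brain barrier, and cells export the excess through ABC transporters such as ABCA1 and ABCG1.

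Promoter sequence is shown for 6 of the genes whose levels the results turn on: Hmgcs1, Idi1, Msmo1 and Insig1, which were lower in intermediate progenitors than in radial glia, Fdps, which did not pass that test, and, for contrast, Abca1, which was higher in intermediate progenitors. Each run holds the 250 bases before the RefSeq start site (build GRCr8), 5′ to 3′ on the gene's strand. Capitals mark CCAAT or its reverse complement ATTGG, the box bound by NF-Y, and CACNCCAC on either strand, the core of a sterol regulatory element. Hmgcs1 lies on the plus strand at chr2:53382054-53382303, Idi1 on the minus strand at chr17:66547525-66547774, Fdps on the minus strand at chr2:176804817-176805066, Msmo1 on the plus strand at chr16:29746863-29747112, Insig1 on the minus strand at chr4:8057770-8058019 and Abca1 on the minus strand at chr5:72596474-72596723.
Hmgcs1: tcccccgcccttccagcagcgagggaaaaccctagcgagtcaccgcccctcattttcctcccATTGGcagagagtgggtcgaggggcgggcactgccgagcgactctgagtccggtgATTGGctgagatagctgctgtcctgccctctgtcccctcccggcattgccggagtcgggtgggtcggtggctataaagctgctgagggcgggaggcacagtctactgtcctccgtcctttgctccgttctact
Idi1: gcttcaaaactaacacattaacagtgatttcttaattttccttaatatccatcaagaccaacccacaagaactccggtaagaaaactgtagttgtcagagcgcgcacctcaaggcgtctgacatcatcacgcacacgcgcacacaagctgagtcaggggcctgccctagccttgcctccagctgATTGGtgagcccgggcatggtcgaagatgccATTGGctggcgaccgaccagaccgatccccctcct
Fdps: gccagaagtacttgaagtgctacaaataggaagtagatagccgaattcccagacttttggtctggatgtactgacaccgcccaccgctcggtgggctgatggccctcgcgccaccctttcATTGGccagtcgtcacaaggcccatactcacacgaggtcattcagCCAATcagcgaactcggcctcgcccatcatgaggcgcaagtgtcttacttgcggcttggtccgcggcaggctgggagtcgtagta
Msmo1: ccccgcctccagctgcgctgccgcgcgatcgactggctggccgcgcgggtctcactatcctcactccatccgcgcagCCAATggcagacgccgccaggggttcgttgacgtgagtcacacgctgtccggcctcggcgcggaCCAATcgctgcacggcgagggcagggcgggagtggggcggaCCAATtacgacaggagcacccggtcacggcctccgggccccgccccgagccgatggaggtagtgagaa
Insig1: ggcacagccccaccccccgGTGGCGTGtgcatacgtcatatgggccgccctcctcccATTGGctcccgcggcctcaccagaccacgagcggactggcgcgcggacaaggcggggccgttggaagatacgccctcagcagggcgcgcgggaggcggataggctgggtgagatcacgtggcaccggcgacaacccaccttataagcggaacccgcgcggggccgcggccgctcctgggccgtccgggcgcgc
Abca1: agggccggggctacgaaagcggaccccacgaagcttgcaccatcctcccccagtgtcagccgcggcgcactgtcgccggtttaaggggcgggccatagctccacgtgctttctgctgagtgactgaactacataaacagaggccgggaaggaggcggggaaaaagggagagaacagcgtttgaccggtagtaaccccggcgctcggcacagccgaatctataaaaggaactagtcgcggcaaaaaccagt
A CCAAT box in either orientation was found in 19 of the 25 genes with a promoter in the table, among them 14 of 17 synthesis enzymes. Over 21757 protein-coding promoters of the same length the share was 35.0%. Msmo1 held 3 such boxes, Hmgcs1, Idi1 and Fdps held 2 each, Insig1 held 1 and Abca1 held 0. The core CACNCCAC was found in 3 of the 25 (Acat2, Ebp and Insig1), against 4.81% of all promoters. The longer form of the sterol element, this core with AT directly before it, was found on either strand in 0 of the 25 and in 0.152% of all promoters. These matches describe letters in this window and no measured binding.

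The summed level of the synthesis enzymes was higher in radial glia, the dividing stem cells that line the ventricle, than in intermediate progenitors of the same library, and higher than in excitatory neurons in the libraries labelled E14 and E18, which held such cells. The 20 enzymes summed to 2968 CPM (2922 to 3014) in radial glia labelled E14, 1701 (1687 to 1714) in those labelled E16 and 1946 (1928 to 1964) in those labelled E18. Intermediate progenitors, the short-lived daughters of radial glia that divide into neurons, stood at 1354, 1333 and 1347 CPM in the same order. No intermediate progenitor sum reached any radial glia sum, and 19, 17 and 18 of the 20 enzymes lay below radial glia of the same label. Newborn excitatory neurons lay between, at 1670 CPM labelled E14 and 1715 labelled E18, and maturing excitatory neurons at 1830 and 1584 CPM. Labelled E14, 17 of the 20 enzymes lay below radial glia in newborn and 16 in maturing neurons, with median log2 ratios of -0.59 and -0.47. Labelled E18, 10 lay below and 10 above in either neuron class, with medians of 0.0058 and -0.0042, so there the sums were lower but the typical enzyme was not. The library labelled E16 held 3 newborn and 0 maturing neurons of these classes. Its postmitotic cells were mostly an unnamed cluster of 457 cells led by Calb1, Nhlh2, Nxph4 and Lhx9, 453 of them labelled E16, where the enzymes summed to 1638 CPM and 12 of 20 lay above radial glia labelled E16 (median 0.21).

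**Figure D1:**
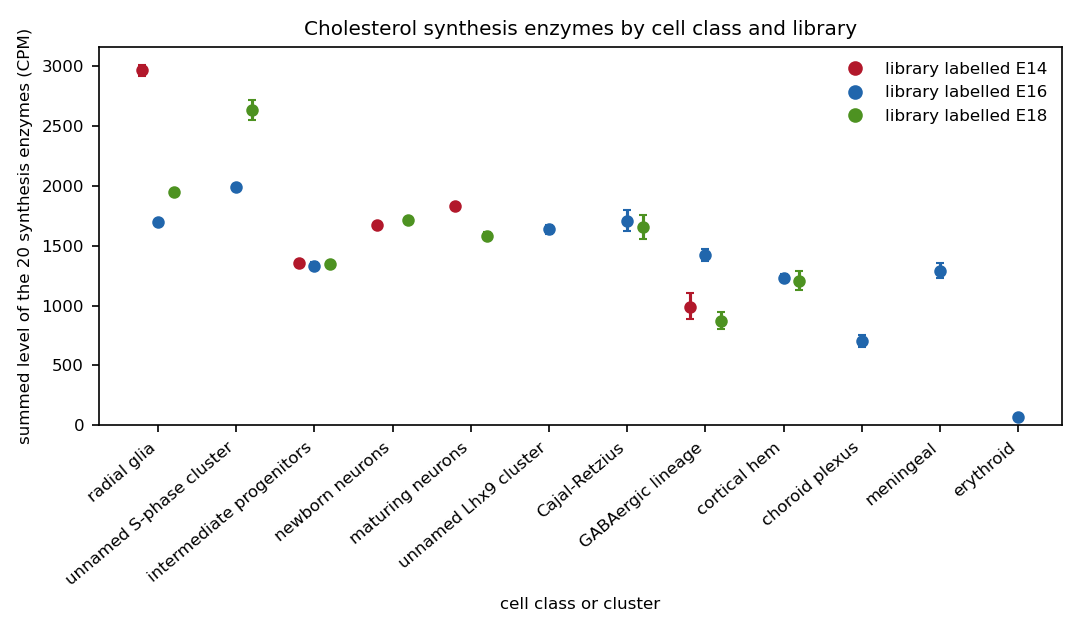
Summed level of the 20 cholesterol synthesis enzymes (CPM, vertical axis from 0) in each cell class or unnamed cluster with at least 50 cells, one point per library label, with exact Poisson 95% intervals. Radial glia labelled E14 are at 2968 CPM, and intermediate progenitors sit between 1333 and 1354 CPM under all 3 labels.

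The summed enzymes of most other classes were also below radial glia of the same label. Cortical hem cells, a signalling centre at the cortical edge, stood at 1232 CPM labelled E16 and 1209 labelled E18. Cells of the GABAergic lineage stood at 990.2, 1421 and 873 CPM in label order, but were not the same cluster under each label. Cluster 21 held 55 of the 56 such cells labelled E14 and 69 of the 88 labelled E18, and cluster 18 held 264 of the 267 labelled E16. Cluster 18 had 4 of 8 GABAergic markers raised, was led by Tp73, Calb2 and Lhx9 as well as Gad2 and Dlx1, and scored almost as high for Cajal-Retzius markers, so its name is uncertain. Choroid plexus cells, which secrete cerebrospinal fluid, stood at 705 CPM labelled E16, and endothelial or mural cells at 906 CPM over all labels. Microglia, the immune cells of the brain, stood at 549 CPM over 30 cells. Red blood cell precursors labelled E16 stood at 70.6 CPM. Cajal-Retzius cells, early neurons of the cortical surface, were at 1709 CPM labelled E16, with an interval (1621 to 1799) that included the 1701 CPM of radial glia of that label. Labelled E18 they were at 1657 CPM (1560 to 1758), below the 1946 CPM of radial glia of that label.

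**Figure D2:**
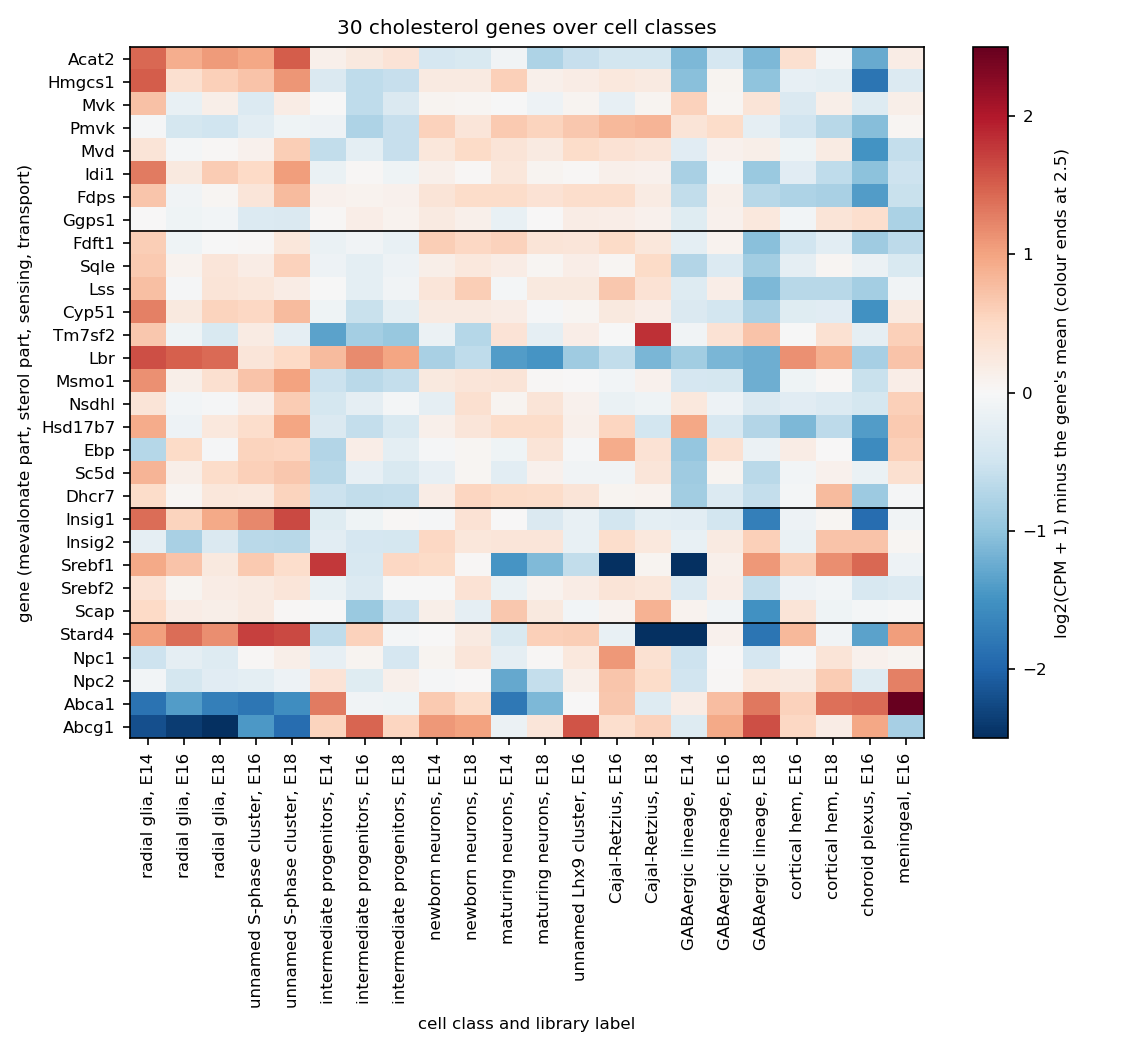
Level of the 30 genes (rows, in the order mevalonate part, sterol part, sensing, transport, divided by lines) in 22 sums of cell class or cluster and library (columns), as log2(CPM + 1) minus each gene's mean over the columns. Most synthesis enzymes are red in radial glia labelled E14, where Hmgcs1 reached 567 CPM, while Abca1 and Abcg1 are blue in all radial glia.

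Classes were compared within libraries with edgeR's quasi-likelihood test on sums per class and library, with library as a term and Benjamini-Hochberg adjustment over 13935 genes. The 3 libraries, which carry different labels, served as the replicates, so an adjusted p measures the spread of a class difference over those libraries. In intermediate progenitors 16 of the 30 genes were lower than in radial glia and 3 were higher at an adjusted p of at most 0.05. Over all genes tested the shares were 17.9% lower and 16.8% higher. Of the 20 synthesis enzymes 13 were lower and 0 higher, with a median log2 fold change of -0.48 against -0.02 over all genes. The count of 16 fell to 7 without the library labelled E18, to 7 without the library term and to 8 under a stricter cell filter, of at least 1500 genes and at most 5% mitochondrial UMIs. Lower calls over all genes fell too, from 2495 of 13935 to 998 of 12956, 911 of 13935 and 1537 of 11423 in the same order. Each was a smaller share than among the 30 genes. No called gene changed sign in any alternative.

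**Figure D3:**
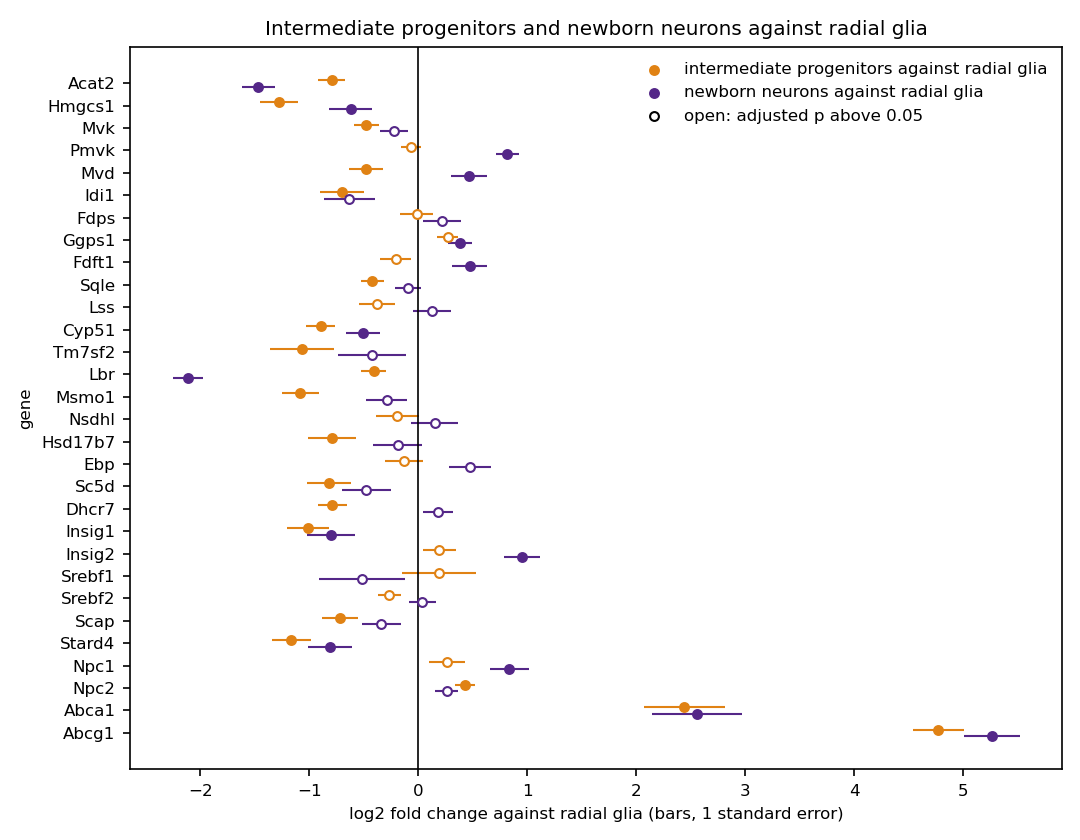
edgeR log2 fold change against radial glia (horizontal axis, bars are 1 standard error) for each of the 30 genes (vertical axis) in intermediate progenitors (orange) and newborn neurons (purple); filled points have an adjusted p of at most 0.05. Synthesis enzymes lie mostly left of 0 in intermediate progenitors, and Abca1 and Abcg1 lie right of 0 in both classes.

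In the mevalonate part, Hmgcs1, which condenses acetyl-CoA units into HMG-CoA, had the lowest fold change of the 20 enzymes in intermediate progenitors. In label order, here and below, radial glia held 567, 262 and 303 CPM of it and intermediate progenitors 154, 127 and 132 CPM. Every radial glia value lay above every intermediate progenitor value. The log2 fold change was -1.28 (SE 0.17, edgeR adjusted p = 0.0016), and the call held under all 14 alternatives. Acat2, which supplies acetoacetyl-CoA, stood at 357, 247 and 277 CPM against 143, 157 and 167 CPM (-0.79, SE 0.13, edgeR adjusted p = 0.0030). Under the stricter cell filter it shrank to -0.30 and did not pass. RefSeq names 2 pseudogenes after Acat2, 4 after Fdps and 1 each after Idi1 and Nsdhl, and how reads were split between such copies is not known. Idi1, the isomerase of isopentenyl pyrophosphate, stood at 406, 193 and 254 CPM against 146, 167 and 151 CPM, with 1 intermediate progenitor value close below the lowest radial glia value. Its log2 fold change was -0.70 (edgeR adjusted p = 0.034), and the call was lost in 4 of 14 alternatives, among them without the library labelled E18. The kinase Mvk and the decarboxylase Mvd were also lower, at -0.48 (edgeR adjusted p = 0.016) and -0.48 (edgeR adjusted p = 0.049). Both calls were lost without the library labelled E18, and Mvd's held in 4 of 14 alternatives. The kinase Pmvk, the farnesyl pyrophosphate synthase Fdps and the geranylgeranyl pyrophosphate synthase Ggps1 did not pass. Fdps stood at 561, 323 and 356 CPM in radial glia and 373, 366 and 372 CPM in intermediate progenitors, so the classes overlapped.

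In the sterol part, 8 of 12 enzymes were lower in intermediate progenitors. Msmo1, a methyl oxidase that works on the sterol ring together with Nsdhl, stood at 178, 88.9 and 107 CPM in radial glia and 55.2, 49.8 and 52.5 CPM in intermediate progenitors. The lowest radial glia value lay above the highest intermediate progenitor value, and the log2 fold change was -1.08 (SE 0.17, edgeR adjusted p = 0.0028). Cyp51, the lanosterol demethylase, stood at 213, 105 and 131 CPM against 82.7, 59.8 and 74.8 CPM (-0.89, SE 0.13, edgeR adjusted p = 0.0024). Dhcr7, which makes the last reduction to cholesterol and is mutated in Smith-Lemli-Opitz syndrome, stood at 31.7, 23.6 and 27.8 CPM against 15.3, 14.5 and 14.7 CPM (-0.79, SE 0.13, edgeR adjusted p = 0.0036). For these 3 genes the classes did not overlap and the calls held under all 14 alternatives. Tm7sf2, a sterol reductase, had -1.07 (SE 0.30, edgeR adjusted p = 0.029), and its call was lost in 5 of 14 alternatives, among them without the library labelled E16 and without that labelled E18. Sc5d, Hsd17b7, Sqle and Lbr were lower by smaller or less stable amounts, between -0.82 and -0.41, and all 4 calls were lost without the library labelled E18. Of 14 alternatives, Sc5d was not called in 1, Sqle in 3, and Hsd17b7 and Lbr in 5 each. Fdft1, Lss, Nsdhl and Ebp did not pass.

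Among the sensing genes, Insig1, which retains the SCAP complex when sterol is plentiful and is itself an SREBP target, moved with the enzymes. It stood at 106, 58.6 and 77.4 CPM in radial glia and 31.8, 36.4 and 40.4 CPM in intermediate progenitors (-1.01, SE 0.19, edgeR adjusted p = 0.0069), with no overlap and a call lost in 1 of 14 alternatives, the stricter cell filter. Scap was lower as well, at -0.72 (SE 0.16, edgeR adjusted p = 0.014), a call lost in 4 of 14 alternatives, among them without the library labelled E16 and without that labelled E18. Srebf2, which encodes the SREBP that mainly drives cholesterol genes, did not pass, with -0.27 in intermediate progenitors and levels of 63.9, 51.8 and 56.5 CPM against 44.0, 39.1 and 49.5 CPM. Srebf1, whose SREBP mainly drives fatty acid genes, differed between libraries. In intermediate progenitors it stood at 31.9, 6.36 and 12.9 CPM in label order, and its fold change against radial glia did not pass. Insig2, the less sterol-responsive relative of Insig1, did not pass in intermediate progenitors.

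Abca1 and Abcg1 went the other way. Abca1, which loads cholesterol onto lipid-poor apolipoproteins, stood at 1.46, 2.35 and 1.69 CPM in radial glia, from 8, 86 and 40 UMIs. In intermediate progenitors it stood at 20.6, 7.33 and 7.12 CPM, so no value overlapped, and the log2 fold change was 2.44 (SE 0.37, edgeR adjusted p = 0.0027). Abcg1, which exports cholesterol to lipoprotein particles, stood at 0.915, 0.684 and 0.508 CPM in radial glia, from 5, 25 and 12 UMIs. In intermediate progenitors it stood at 11.9, 22.9 and 11.7 CPM (4.77, SE 0.23, edgeR adjusted p = 3.6e-05), again with no overlap. Both calls held under all 14 alternatives. Npc2, a soluble lysosomal protein that binds cholesterol, was higher by 0.43 (SE 0.090, edgeR adjusted p = 0.0097), with overlapping levels and a call lost in 4 of 14 alternatives, among them without the library labelled E18. Stard4, which carries sterol between membranes and is an SREBP target, was lower: 17.9, 23.5 and 19.6 CPM in radial glia against 4.97, 12.9 and 7.99 CPM (-1.17, SE 0.18, edgeR adjusted p = 0.0028), a call lost without the library term. Npc1, the lysosomal membrane protein that takes cholesterol over from Npc2, did not pass, with 6.04, 7.55 and 7.03 CPM against 7.63, 9.45 and 6.49 CPM.

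In newborn neurons 6 of the 30 genes were lower than in radial glia and 8 were higher by the same edgeR test. Over all genes 29.4% were lower and 29.2% higher, so neither count exceeded the share of all genes. These sums came from the libraries labelled E14 and E18 alone, and from different clusters in each. The count of higher genes fell to 4 without the library labelled E18, to 5 without the library term and to 3 under the stricter cell filter. That filter left 339 cells labelled E14 of all classes, and the classes were rebuilt from the cells it left. Higher calls over all genes fell too, from 4065 of 13935 to 3020 of 13935 without the library term and 2342 of 11423 under that filter. Of the 20 enzymes 4 were lower and 4 higher. The lower ones were Lbr, Acat2, Hmgcs1 and Cyp51. Lbr, a sterol reductase that is also the lamin B receptor of the nuclear envelope, stood at 87.9, 80.1 and 76.4 CPM in radial glia and 15.5 and 17.6 CPM in newborn neurons (-2.12, SE 0.14, edgeR adjusted p = 1.8e-05). Under the stricter cell filter this shrank to -0.11 and did not pass. Acat2 stood at 99.0 and 100.5 CPM in newborn neurons (-1.47, SE 0.15, edgeR adjusted p = 0.00014), and its call held under all 16 alternatives. Hmgcs1 stood at 233 and 233 CPM there, below each radial glia value (-0.62, edgeR adjusted p = 0.030), and its call was lost in 5 of 16 alternatives, with values down to -0.26. The call of Cyp51 (-0.51, edgeR adjusted p = 0.023) was lost in 4 of 16, with values down to -0.25. Both were lost without the library labelled E14.

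The 4 enzymes that were higher in newborn neurons were Pmvk, Fdft1, Mvd and Ggps1. Pmvk, which makes mevalonate pyrophosphate, stood at 56.0, 41.8 and 39.7 CPM in radial glia and 85.4 and 70.7 CPM in newborn neurons (0.82, SE 0.11, edgeR adjusted p = 0.00046), with no overlap. Its value was 0.35 and did not pass under the stricter cell filter. Fdft1, which makes squalene, stood at 141, 85.2 and 91.1 CPM against 141 and 131 CPM, so its top radial glia value reached the neurons' (0.47, edgeR adjusted p = 0.039). The calls of Fdft1, Mvd (0.46, edgeR adjusted p = 0.046) and Ggps1 (0.38, edgeR adjusted p = 0.021) were lost without the library labelled E18 and under the stricter cell filter. Of 16 alternatives, Mvd was not called in 9, Fdft1 in 6 and Ggps1 in 4. Of the sensing genes, Insig1 was lower (-0.80, edgeR adjusted p = 0.017) and Insig2 higher (0.95, edgeR adjusted p = 0.0018), each call lost in 1 of 16 alternatives. Insig2 stood at 11.5, 7.41 and 10.5 CPM in radial glia and 20.1 and 16.9 CPM in newborn neurons, the reverse order of its relative Insig1, which stood at 38.7 and 51.1 CPM in the neurons.

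Abca1 and Abcg1 were higher in newborn neurons too, at 2.56 (SE 0.41, edgeR adjusted p = 0.0013) and 5.26 (SE 0.26, edgeR adjusted p = 5.3e-06) on the log2 scale. Abca1 stood at 12.9 and 11.0 CPM and Abcg1 at 17.6 and 16.7 CPM in the libraries labelled E14 and E18. In maturing neurons Abca1 stood at 1.56 and 3.03 CPM and Abcg1 at 6.89 and 9.82 CPM, below newborn neurons, with Abcg1 still above its radial glia values. Of the 5 transport genes 3 were at least 1.5-fold lower in maturing than in newborn neurons under each label, against 11.3% of all genes labelled E14 and 12.9% labelled E18. They were Abca1, Abcg1 and Npc2, and this step has no test. Genes were counted at a mean of 5 CPM or more over both classes. Abca1 met this mean through newborn neurons alone, so its direction was set by this rule. Npc1 was higher in newborn neurons than in radial glia (0.83, edgeR adjusted p = 0.0056), and Stard4 lower (-0.81, edgeR adjusted p = 0.010), calls that were both lost without the library labelled E18.

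Microglia and vessel cells carried the highest levels of both exporters. Abca1 stood at 120.0 CPM (95.5 to 149) in microglia and Abcg1 at 73.7 CPM (54.9 to 96.9), and Npc2 reached 627 CPM there. Endothelial or mural cells held 78.6 CPM of Abca1 and 80.0 CPM of Abcg1, and meningeal cells labelled E16 held 67.9 CPM of Abca1 but 3.95 CPM of Abcg1. In the classes tested, the 8 microglia markers summed to 1.57 to 2.93 CPM in radial glia, 0.712 to 2.12 CPM in intermediate progenitors and 1.26 to 6.23 CPM in newborn neurons. The 7 endothelial markers summed to at most 2.84 CPM in any of these sums. The part of RNA from such cells in the levels of Abca1 and Abcg1 was not tested.

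**Figure D4:**
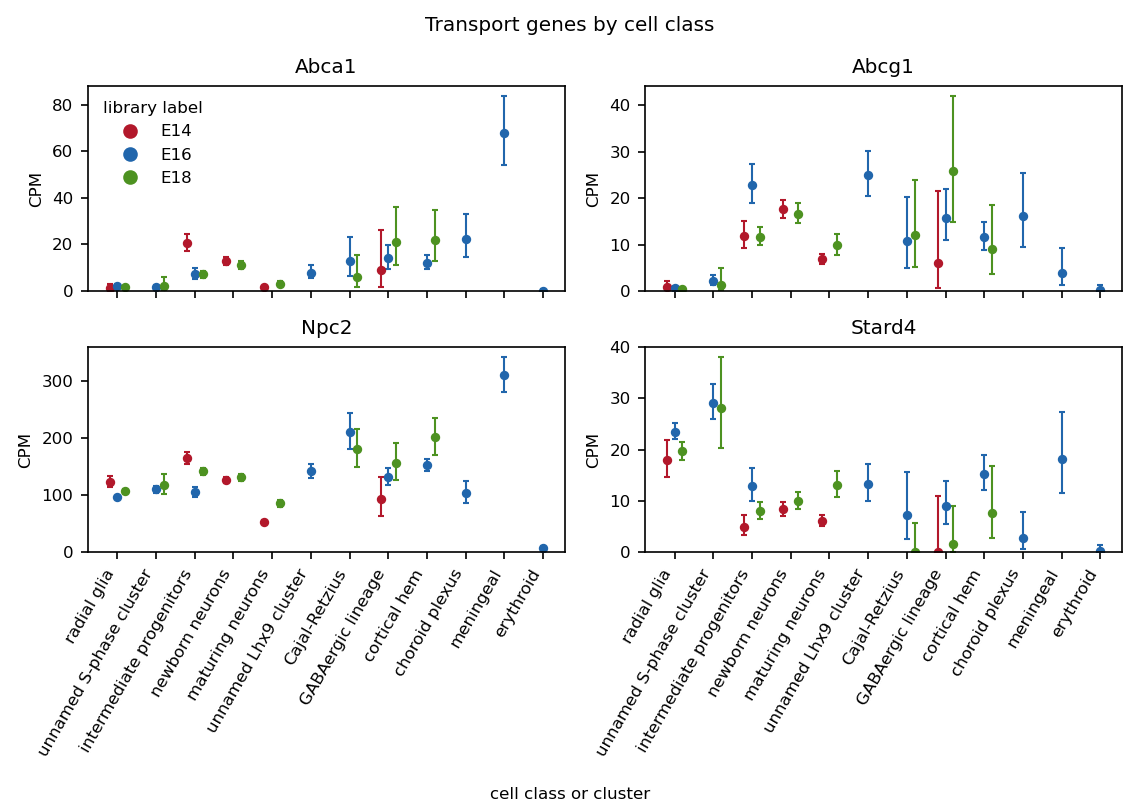
Levels (CPM, vertical axes from 0) of Abca1, Abcg1, Npc2 and Stard4 in each cell class or unnamed cluster with at least 50 cells, one point per library label, with exact Poisson 95% intervals. Abca1 and Abcg1 are under 2.4 CPM in radial glia and higher in intermediate progenitors and newborn neurons, and Stard4 is lower in intermediate progenitors and newborn neurons than in radial glia.

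Between libraries there was 1 sample per label, so ratios are given as descriptions with no test, on CPM with 1 CPM added. They cover genes at 5 CPM or more, as a mean over the sums compared. In radial glia labelled E16 against those labelled E14, 12 of the 28 genes at that level were at least 1.5-fold lower and 1 was higher, where 17.5% of all genes were that much lower and 7.06% higher. Of the 20 enzymes 11 were lower and 1 higher, with a median log2 ratio of -0.71 against -0.11 over all genes. Labelled E18 against E14, 9 of 28 genes were at least 1.5-fold lower and 1 higher (all genes, 9.27% and 4.38%), with an enzyme median of -0.45. Labelled E18 against E16, 0 of 28 passed in either direction (all genes, 5.52% higher and 2.4% lower), and 16 of 20 enzymes lay above 0, with a median of 0.19. These comparisons share libraries in pairs.

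**Figure D5:**
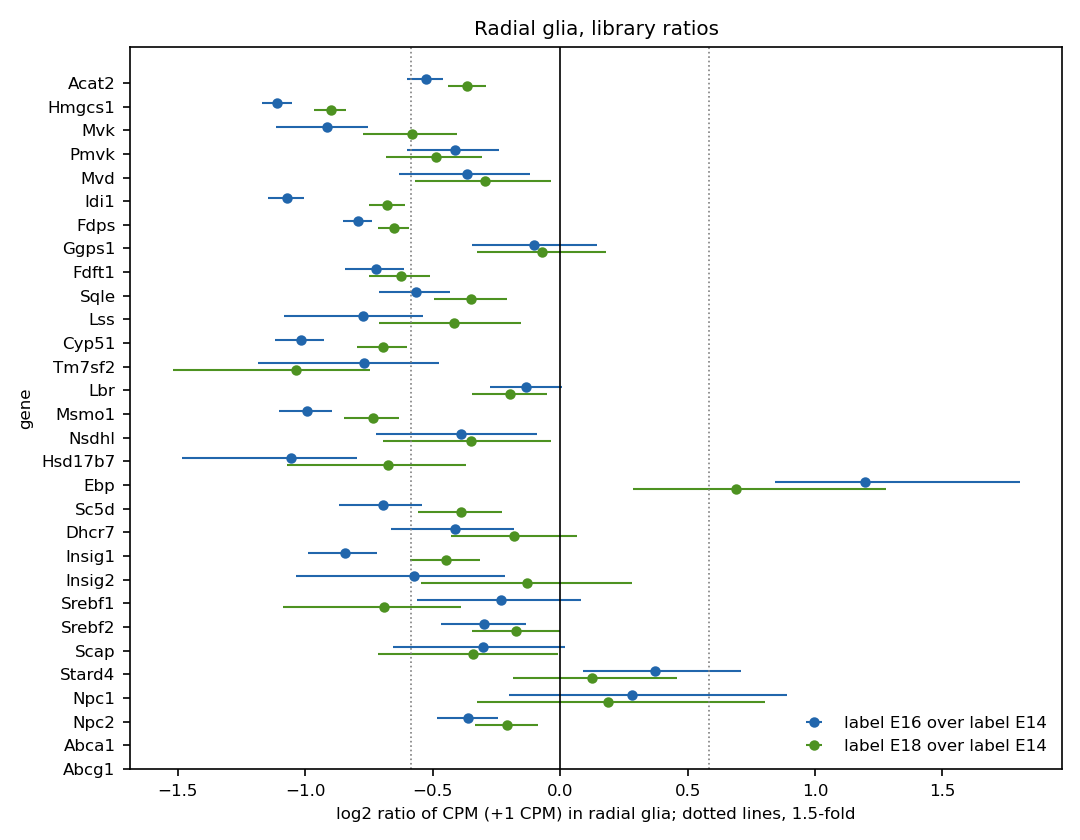
Log2 ratio of CPM (with 1 CPM added) in radial glia for the libraries labelled E16 (blue) and E18 (green) over that labelled E14, for the 28 genes at 5 CPM or more. Bars are exact 95% intervals of the ratio before 1 CPM was added, and dotted lines mark 1.5-fold. Most synthesis enzymes lie left of 0 in both, and Ebp lies right of 0.

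At least 1.5-fold lower labelled E16 over E14 were 4 of 8 enzymes of the mevalonate part and 7 of 12 of the sterol part, and labelled E18 over E14 3 of 8 and 5 of 12. Hmgcs1 had a log2 ratio of -1.11 (-1.17 to -1.05) labelled E16 over E14 and -0.90 labelled E18 over E14. Idi1 had -1.07 and -0.68, Cyp51 -1.02 and -0.69, and Msmo1 -0.99 and -0.73. Insig1 followed with -0.84 and -0.45. Ggps1, whose product serves protein prenylation rather than sterol, stood at 29.7, 27.6 and 28.1 CPM with overlapping intervals, and Lbr at -0.13 and -0.20. Ebp, the sterol isomerase after lanosterol demethylation, was the exception among the 20 enzymes. It stood at 7.32 (5.23 to 9.97), 18.1 (16.7 to 19.5) and 12.4 CPM, lowest under the label E14. Its log2 ratio had an interval of 0.84 to 1.80 labelled E16 over E14, and was 0.69 labelled E18 over E14. Stard4 was also lowest under that label, at 17.9 against 23.5 and 19.6 CPM, though within 1.5-fold.

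Radial glia came from partly different clusters in the 3 libraries, and no cluster held 50 or more of their cells under all 3 labels. Clusters 4 and 5 held 5 and 2 cells labelled E16, so they compare the labels E14 and E18 alone. In cluster 4, led by Mfge8, Aldoc and Slc1a3, the enzymes summed to 3469 CPM in 175 cells labelled E14 and 2025 CPM in 695 cells labelled E18. There, 12 of 20 enzymes were at least 1.5-fold lower labelled E18, with 13.0% of all genes that much lower. In cluster 5, led by the mitotic genes Prc1, Nusap1 and Top2a, they summed to 2530 CPM in 148 cells and 1872 CPM in 714 cells, and 3 of 20 passed the fold, with 9.52% of all genes that much lower. In cluster 10, with fewer than 50 cells labelled E14, they summed to 3154 CPM in 32 cells labelled E14, 1759 CPM labelled E16 and 2141 CPM labelled E18. A further unnamed cluster of S-phase cells with radial glia genes, led by Ung, Cdc6 and Dtl and also expressing Wnt8b, stood at 1988 CPM in 760 cells labelled E16 and 2637 CPM in 95 cells labelled E18.

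Other measures moved with the labels in radial glia. The 10 radial glia markers summed to 9277, 4146 and 5599 CPM, the same order as the enzymes. The 11 markers of maturing neurons summed to 453, 164 and 209 CPM and the 9 markers of intermediate progenitors to 1036, 467 and 692 CPM. The 12 cell cycle genes summed to 2931, 3158 and 2925 CPM and the 10 dissociation stress genes to 444, 330 and 434 CPM. The median mitochondrial share of kept cells was 6.96%, 3.97% and 5.04%. With at most 5% mitochondrial UMIs and at least 1500 genes per cell, the enzyme median labelled E16 over E14 was -1.03. The part of the marker and stress genes in the difference was not tested, and stage and library cannot be told apart.

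In intermediate progenitors and excitatory neurons the enzymes stood closer together between labels. In intermediate progenitors, the median log2 ratios of the enzymes were -0.03 labelled E16 over E14, 0.00 labelled E18 over E14 and 0.06 labelled E18 over E16. These cells came from the same 3 clusters in different proportions: cluster 2 held 310 of 490 cells labelled E14, 92 of 454 labelled E16 and 520 of 1100 labelled E18, and cluster 12 held 94, 227 and 354. Their 12 cell cycle genes summed to 1876, 3014 and 2607 CPM, and the part of this mix in the ratios was not tested. Of 19 enzymes at 5 CPM or more, 2 and 0 were at least 1.5-fold lower in the first 2 of these comparisons, where 20.0% and 9.45% of all genes were. In newborn neurons labelled E18 over E14 the median was 0.06, with -0.13 at clustering resolution 0.5 and 0.33 under the stricter cell filter. Without these changes 1 of 30 genes, Nsdhl, was at least 1.5-fold higher and 0 lower (all genes, 6.17% and 7.49%). In maturing neurons the median was -0.10, and -0.32 under the stricter cell filter. These neurons also came from different clusters. Clusters 8 and 13 held 802 and 621 of the 1425 cells labelled E14, and cluster 14 held 626 of the 648 labelled E18. The difference between radial glia and intermediate progenitors was not of one size in the 3 libraries, as a description without a test: 17 of 20 enzymes were at least 1.5-fold lower in intermediate progenitors labelled E14 (all genes, 18.7%), 6 labelled E16 (16.9%) and 9 labelled E18 (16.3%). The medians were -0.88, -0.34 and -0.54. Of the 29 members at 5 CPM or more in intermediate progenitors, 6 were at least 1.5-fold lower labelled E16 over E14 (all genes, 20.0%) and 3 higher (9.63%). The lower ones were Srebf1, Abca1, Scap, Pmvk, Npc2 and Mvk, and the higher ones Stard4, Abcg1 and Ebp. Labelled E18 over E14, Srebf1 and Abca1 were lower (9.45% of all genes) and Stard4 higher (4.83%).

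A further 59 genes of sterol and lipid handling were counted by the same edgeR test, as 6 groups. The counts read against the 17.9% of all genes that were lower and the 16.8% that were higher in intermediate progenitors, and with 2 to 14 genes a group they are descriptions. In intermediate progenitors, 3 of 8 tested genes of synthesis and uptake were lower and 1 higher. The higher one was Lrp8, a receptor for reelin and apolipoprotein E, at 24.2, 16.7 and 21.7 CPM in radial glia against 200.0, 60.4 and 149.8 CPM (2.67, SE 0.23, edgeR adjusted p = 0.00023). Of 14 fatty acid genes under SREBP control, 7 were lower and 1 higher. Scd, a desaturase, stood at 12.4, 13.6 and 9.23 CPM against 3.73, 4.44 and 3.48 CPM (-1.46, SE 0.17, edgeR adjusted p = 0.00081). The sensing machinery had 3 of 8 lower and 0 higher, and export and lipoproteins 4 of 6 lower and 0 higher. Among these was Abcg4, a further ABC transporter of sterol, which unlike Abca1 and Abcg1 was lower. It stood at 4.94, 4.65 and 5.54 CPM in radial glia against 2.84, 1.16 and 3.09 CPM (-0.99, SE 0.29, edgeR adjusted p = 0.032). Its intermediate progenitor values came from 16, 6 and 39 UMIs. Of 14 genes of esterification, lysosome and membrane contacts, 3 were lower and 1 higher. Gramd1a, which moves cholesterol from the plasma membrane to the endoplasmic reticulum, was the higher one, at 1.07 (SE 0.12, edgeR adjusted p = 0.00073). Both oxysterol genes tested were lower, among them Cyp46a1, a cholesterol hydroxylase known from mature neurons. Cyp46a1 stood at 10.8, 2.54 and 8.85 CPM in radial glia and 1.24, 0.386 and 0.870 CPM in intermediate progenitors (-3.06, SE 0.29, edgeR adjusted p = 0.00034). The latter values came from 7, 2 and 11 UMIs.

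In newborn neurons 29.2% of all genes were higher and 29.4% lower. Synthesis and uptake had 2 of 8 higher and 1 lower, the fatty acid genes 3 of 14 higher and 7 lower, the sensing machinery 0 of 8 higher and 2 lower, and export and lipoproteins 1 of 6 higher and 3 lower. Esterification, lysosome and membrane contacts had 5 of 14 higher and 6 lower, and the oxysterol genes 0 of 2 higher and 1 lower. Lipa, the lysosomal lipase that frees cholesterol from its esters, was among the lower ones, at 17.8, 29.3 and 25.4 CPM in radial glia against 2.92 and 4.29 CPM (-2.55, SE 0.25, edgeR adjusted p = 0.00013). Gramd1a was higher (1.79, SE 0.13, edgeR adjusted p = 3.2e-05). Lrp1, an endocytic lipoprotein receptor, stood at 35.0, 24.3 and 27.7 CPM in radial glia against 61.3 and 63.2 CPM in newborn neurons (1.12, SE 0.11, edgeR adjusted p = 0.00012).

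The genes differed in how closely they followed the pathway as a whole. Over 22 sums of a class or cluster and a library, leaving out red blood cell precursors, each gene's log2 CPM was correlated with the mean of the other synthesis enzymes, as a description of sums that share libraries. Hmgcs1 (Pearson r 0.97) and Cyp51 (0.96) were closest, followed by Idi1 (0.89) and Msmo1 (0.87). Insig1 stood at 0.87 and Srebf2 at 0.81, close to the enzymes. Lbr (0.12), Tm7sf2 (0.13), Mvk (0.26) and Ggps1 (-0.41) were the enzymes that followed least. Insig2 (-0.40), Abca1 (-0.62) and Abcg1 (-0.62) ran opposite. With red blood cell precursors included, where nearly all of these genes were lowest, the negative values for Abca1, Abcg1, Insig2 and Ggps1 turned positive, at 0.20, 0.16, 0.43 and 0.80. So did those for Npc2 (-0.04 to 0.78) and Srebf1 (-0.09 to 0.34). Mvk then stood at 0.90, Tm7sf2 at 0.71 and Lbr at 0.41, Pmvk moved from 0.31 to 0.84 and Npc1 from 0.14 to 0.79, so many of these values depend on whether that 1 sum is included. Hmgcs1 (0.97), Cyp51 (0.98) and Insig1 (0.86) moved little. Among 3070 other genes, those most like the enzyme mean over the 22 sums were Lix1 (0.81), Ctps1 (0.78), Gars1 (0.75), Ttyh3 (0.75) and Tkt (0.74), where the median gene had 0.04. With all 23 sums they were Gars1, Ubtd2, Arpc5l, Ctnnbip1 and Wdr82, at 0.95 to 0.96, where the median gene had 0.77.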

How the data were processed

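Per the submitters' processing notes, the matrices were written by Cell Ranger 6.0.1 on build mRatBN7.2. The deposited values are raw UMI counts per gene and barcode. The members and gene lists were chosen with earlier results of these data known. All 30 genes are described. Of the other pathway genes, up to 4 per group and class, those with the largest fold among those called, could be named.

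Cells were filtered as stated, 158, 216 and 259 cells with the highest Scrublet scores (scanpy 1.11.5) were removed at 0.8% per 1000 cells, and the rest were clustered (leidenalg 0.10.2, resolution 1, 30 components, 15 neighbours) on 2000 variable genes that left out the members, the other pathway and stage genes, and mitochondrial, ribosomal, haemoglobin and sex-linked genes. Clusters were named where at least 3 and at least 50% of a class's markers were raised, and no other class led the top 10 genes. A raised marker was at least 1.2-fold higher in the cluster and was found in at least 20% of its cells. This naming rule was set after the clusters were seen. It left 2 of 25 clusters unnamed. A cluster of 96 cells was split by marker UMIs into 30 microglia and 66 endothelial or mural cells. The border between newborn and maturing neurons moved with the computation.

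UMI counts were summed per class and library where at least 50 cells were present, and tested with edgeR 4.0.16 (R 4.3.3, TMM, library term, 8 sums, 3 residual degrees of freedom). A 9th sum, newborn neurons labelled E16, was planned and could not be formed. The test was also run on simulated data, and no error rate for these libraries was taken from that run. CPM from 3′ counts is not scaled by gene length, so levels are compared within a gene. Total UMIs were 62740631, 80974234 and 73727823. Promoters came from a RefSeq table (GRCr8), in which 25 of the 30 genes were matched. Alternatives were DESeq2 1.42.0, other size factors, filters, resolutions and pseudocounts, and leaving out each library.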

Additional observations from a re-analysis of the deposited data

How the results depend on the processing

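No paired analysis was possible between labels, because they give no replicate numbers and have 1 library each. The class tests were paired by library through the library term, and without it 7 genes were lower in intermediate progenitors and 5 higher in newborn neurons. With at least 1500 genes and at most 5% mitochondrial UMIs, which left 339 cells labelled E14, the counts were 8 and 3. The enzyme medians were then -1.03 in radial glia labelled E16 over E14, 0.43 labelled E18 over E16 and 0.33 in newborn neurons labelled E18 over E14. At resolution 0.5 the last was -0.13. Leaving out each library gave 7 to 15 genes lower and 2 to 4 higher in intermediate progenitors, and 4 to 8 lower and 4 to 9 higher in newborn neurons, where the low counts of 7 and 4 came without the library labelled E18. A class with 1 sum left was then assumed to vary like the others. The cause of these shifts was not tested, except that fewer libraries leave fewer degrees of freedom. Where 7 or 8 genes were lower in intermediate progenitors, or 3 or 5 higher in newborn neurons, fewer of all genes were called in that direction too. Newborn neuron ratios with the label E16 could not be computed, since 3 cells were left. Of 16 genes lower in intermediate progenitors, 4 were called under every alternative, and of 3 higher ones, 2 were. In newborn neurons it was 1 of 6 and 2 of 8. Joining newborn with maturing neurons and adding either unnamed cluster to its nearest class were chosen after the data were seen. Low levels, such as 5 UMIs of Abcg1 in radial glia labelled E14, limit the precision of fold changes.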

Other observations

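In the 16 Cajal-Retzius cells labelled E14, below the 50 cells required for a comparison, the 20 synthesis enzymes summed to 3628 CPM (3422 to 3844), against 1709 CPM in 90 cells labelled E16 and 1657 CPM in 51 cells labelled E18. The 3628 CPM lay above the 2968 CPM of radial glia labelled E14. In 36 choroid plexus cells labelled E18 Srebf1 stood at 50.7 CPM, and in 55 such cells labelled E16 at 25.0 CPM. Tm7sf2 stood at 36.4 CPM in Cajal-Retzius cells labelled E18 and 9.51 CPM in those labelled E16.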
